A study of Mus musculus with 2 samples.

Results

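Cluster 7 was the smallest of the 7 mRNA clusters by which the deposited data number the type 2 conventional dendritic cells (cDC2s) of naive mice. How these numbers relate to the cDC2 subclusters that the study describes over both conditions is not given in the sources used here. Its members were taken from the cluster number that the authors assigned to each cell of the naive library, and no measured value was used to choose them here. It held 50 of the 2024 naive cells with an mRNA cluster number, or 2.47% (95% interval, 1.84 to 3.24%), and it is compared below with the other 1974. The whole naive library held 3471 cells and both libraries together 11067.

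The study measured mRNA and surface antibodies in the same single cells by CITEseq, in which DNA-tagged antibodies are counted together with transcripts. The naive library came from unimmunized C57BL/6N (B6) mice, with pooled skin-draining lymph nodes named in the study's methods and popliteal nodes in the deposited protocol. The papain library came from popliteal lymph nodes of B6 mice given ovalbumin (OVA) plus the protease allergen papain in both rear footpads 1 day earlier. In both, live MHCIIhi CD11c+ B220- cells had been sorted, a gate that keeps cells with high surface MHC class II and the integrin CD11c and removes cells with the B cell marker B220. Each condition had 1 library, so the values below describe these libraries. No p-value is given, and the 95% intervals (exact Clopper-Pearson for shares of cells, exact Poisson for levels) cover counting error only.

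Dendritic cells take up antigen in tissues, and after reaching the lymph node they present it on MHC class II to CD4+ T cells. Dermal cDC2s that have migrated carry CD172a (SIRPα) and, in part, the lectin CD301b, which *Mgl2* encodes, and they turn on a migratory program that includes the chemokine receptor *Ccr7* and the actin-bundling protein *Fscn1*. T cells are defined by the CD3 chains that carry the T cell receptor, NK cells and innate lymphoid cells (ILCs) are lymphocytes without that receptor, and B cells are defined by the CD79 chains and by immunoglobulin.

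Whether a cell was called a cDC2 rested on its antibody values, so the tags of the antibodies that bear on cluster 7 are shown here. They are synthetic barcodes that are read 5′ to 3′ and have no place in the genome. The deposited list gives CD11b and CD24 the same tag, so the values of these 2 antibodies cannot be read separately and are not interpreted below.
CD301b: cttgccttgcgattt
CD172a: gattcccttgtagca
CD11c: gttatggacgcttgc
I-A/I-E (MHC class II): ggtcaccagtatgat
CD8a: tacccgtaatagcgt
CD103: ttcattagcccgctg
CD11b: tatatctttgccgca
CD24: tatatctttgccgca

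The cells of cluster 7 had a high median depth and were mostly low in CD301b, although other clusters shared each trait. They held a median of 20541 unique molecular identifiers (UMIs, each 1 captured mRNA molecule), from 3725 to 45593, against a median of 14171 in the other labelled cells, of which clusters 1 and 5 had medians of 18800.5 and 18848. The median number of detected genes was 4199.5 against 3076.5. Of the 50 cells, 15 (30.0%) lay above the 90th percentile of depth of the other cells. Depth was uneven, as the lower quartile of cluster 7, 8662 UMIs, was below the 11016 UMIs of the other cells. The median mitochondrial share of UMIs was 3.62% in cluster 7 and 3.91% in the other cells. The authors' classes put 4 cells (8.0%, 2.22 to 19.2%) in the CD301bhi class, 12 (24.0%) in the CD301bint class and 34 (68.0%, 53.3 to 80.5%) in the CD301blo class, whereas the other 6 clusters held between 11.7% and 53.4% CD301bhi cells. Clusters 4 and 5 were near to it in the CD301blo class, with 64.5% and 58.1% of their cells. Barcodes shared by both libraries numbered 2, and 0 of them were in cluster 7.

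The leading genes of cluster 7 were lymphocyte genes. Levels are pooled UMI counts of all cells in a group, expressed per 1000000 UMIs (CPM), and a log2 ratio compares cluster 7 with the other labelled cells after adding 1 CPM to both, which understates differences of genes with low levels. *Il2rb*, the β chain shared by the receptors for IL-2 and IL-15, reached 288 CPM (254 to 325) in cluster 7 against 1.53 CPM (1.12 to 2.04) in the other cells, a log2 ratio of 6.83. The T cell receptor β constant gene *Trbc2* was at 283 against 2.36 CPM and the CD3 chain *Cd3e* at 122 against 1.10 CPM. *Gzma*, a cytotoxic granule protease, was at 224 against 1.16 CPM, the granule membrane protein *Nkg7* at 102 against 0.632 CPM, and *Xcl1*, a chemokine that lymphocytes make for XCR1+ dendritic cells, at 89.2 against 0.366 CPM. *Igkc*, the immunoglobulin κ constant region, was at 303 against 4.16 CPM. *Ms4a4b*, *Cd3g*, *Cd28*, *Cd3d*, *Gimap3*, *Ablim1* and *Trbc1* were also among the 15 genes with the highest ratios, which ranged from 5.81 to 6.83. All 15 were highest in cluster 7 among the 7 naive clusters. The clusters were made from these same mRNA values, so the differences describe cluster 7 and do not test it.

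Of 8153 genes that reached 10 CPM in cluster 7 or in the other cells, 1055 were at least 2-fold higher in cluster 7, or 12.9%, and 323 were at least 2-fold lower, or 3.96%. The median log2 ratio of all 8153 genes was 0.13.

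**Figure D1:**
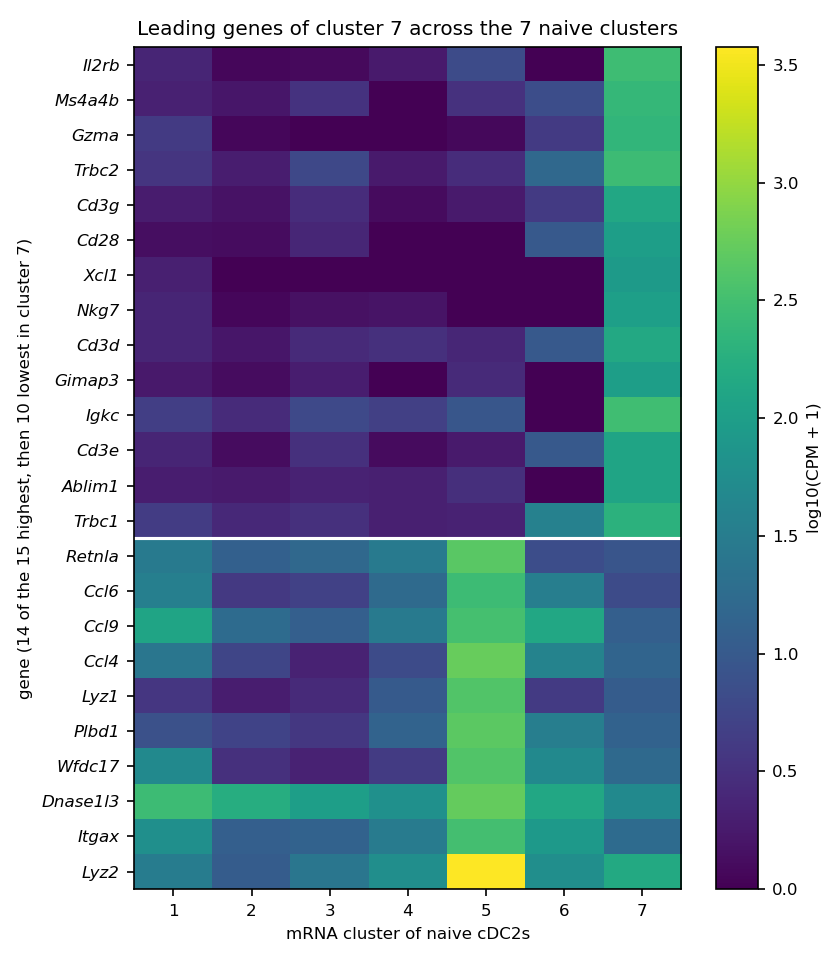
Level of 14 of the 15 most raised and of the 10 most lowered genes of cluster 7 by log2 ratio (rows, parted by the white line) in each of the 7 naive mRNA clusters (columns), as log10(CPM + 1) in color. The upper rows are high in column 7 alone, whereas all 10 lower rows reach their highest level in cluster 5, where *Lyz2* is at 3763 CPM.

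The T cell markers had the highest median log2 ratio of the lymphocyte lists. Of 17 genes, 16 were at least 2-fold higher in cluster 7 and none was lower, with a median log2 ratio of 5.43. *Lck*, the kinase that starts signalling from the T cell receptor, was at 83.7 against 0.865 CPM, its adaptor *Lat* at 88.1 against 1.06 CPM, and the transcription factor *Bcl11b* at 77.1 against 0.599 CPM. *Tcf7*, another T cell transcription factor, was higher by a log2 ratio of 2.30 from a level of 33.2 CPM in the other cells. *Cd8a* was the exception, at 70.5 against 41.1 CPM, a log2 ratio of 0.76, while *Cd8b1*, the partner chain, was at 83.7 against 1.90 CPM. *Cd4*, the MHC class II coreceptor, was at 81.5 against 8.68 CPM, but 9 of the 16 cells with a *Cd4* UMI were outside the CD3 set described below.

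For the lymphocyte lists the filter itself bears on these counts, since 15 of the 17 T cell, 10 of the 12 NK cell, 4 of the 7 ILC and 11 of the 13 B cell genes reached 10 CPM only in cluster 7 and so had to be higher there. The counts and medians therefore describe the cluster and support nothing further.

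Of 12 NK cell markers, 11 were at least 2-fold higher, with a median log2 ratio of 4.75. The natural cytotoxicity receptor *Ncr1* was at 33.0 against 0.200 CPM and the lectin receptor *Klrb1c* (NK1.1) at 29.7 against 0.200 CPM. *Gzmb*, which encodes granzyme B, had 38 UMIs in cluster 7 and 0 in the other labelled cells, and was at least 419.7-fold higher when a count of 0 is read as up to 3 counts over the group. The receptor chain *Klrd1* was similar, at 58.4 against 45.1 CPM.

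All 7 ILC markers that passed the filter were at least 2-fold higher, with a median log2 ratio of 3.80. Cluster 5 shared the level of *Kit* (46.7 against 48.5 CPM in cluster 7) and *Areg* (12.3 against 12.1 CPM). Of the 7 markers, *Rora* and *Gata3*, transcription factors of ILCs that some T cells also use, were at 268 against 12.3 CPM and at 85.9 against 0.765 CPM. The IL-7 receptor *Il7r* was at 468 CPM and already at 118 CPM in the other cells. *Il22*, the cytokine of group 3 ILCs and of some T cells, was at 84.8 against 2.29 CPM. The 2 of 7 listed γδ T cell genes above the filter, *Tcrg-C4* and *Il23r*, passed it only through cluster 7, at 13.2 and 18.7 CPM against 0.0665 and 1.06 CPM. *Trdc*, the δ chain itself, had 9 UMIs, all in 1 cell.

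Of the 13 B cell markers above the filter, all 13 were at least 2-fold higher, with a median log2 ratio of 3.51, which included *Iglc2* at 39.7 against 0.565 CPM, *Cd79a* at 34.2 against 0.765 CPM and *Fcmr* at 29.7 against 0.333 CPM. Of 6 plasmacytoid DC markers 2 were higher, *Ly6d* and *Ly6c2*, and the defining *Siglech* had 0 UMIs. All 41 UMIs of *Ly6d*, which B cells also express, were in 5 cells.

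Lymphocyte transcripts were in a large share of the cells of cluster 7 and in few of the other labelled cells. *Trbc2* was found in 41 of 50 cells (82.0%, 68.6 to 91.4%) against 2.48% of the other labelled cells. *Il2rb* was found in 38 cells (76.0%, 61.8 to 86.9%) against 1.11%, *Cd3e* in 24 cells (48.0%, 33.7 to 62.6%) against 1.17%, and *Nkg7* in 24 cells against 0.405%. With each cell thinned to 8355 UMIs, which left out 11 cells of cluster 7 and 192 others, the expected shares were 65.7% against 0.633% for *Il2rb* and 44.1% against 0.580% for *Cd3e*. Shares in the naive Langerhans cells, another subset in the same library, were 1.14% for *Il2rb* and 0.909% for *Cd3e* at a median depth of 10767.5 UMIs. In the naive cDC1s they were 8.30% and 9.86% at a median of 15806.5 UMIs. A column deposited by the authors marks cells with a *Cd3e* or *Trac* UMI as conjugated with T cells, and it marked 28 cells of cluster 7 (56.0%, 41.3 to 70.0%) and 62 of the other 1974.

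The lymphocyte genes were not spread evenly over the 50 cells. They parted the cells into sets that were defined after the values were seen, by a sum of at least 2 UMIs. In the CD3 set of 25 cells, *Cd3d*, *Cd3e* and *Cd3g* together had 4 to 33 UMIs per cell, with a median of 14. The B set of 5 cells had 7 to 25 UMIs of *Cd79a*, *Cd79b* and *Ms4a1* together. The Il2rb set of 19 cells was in neither of these and had 2 to 22 *Il2rb* UMIs, with a median of 10. The last cell met none of the criteria. Few cells lay near the limits, as 1 cell of cluster 7 had 1 or 2 CD3 UMIs, 8 had 1 or 2 UMIs of the B sum, and 1 cell outside the CD3 and B sets had 1 or 2 *Il2rb* UMIs. The cell with 2 CD3 UMIs was also above the limit for the B sum and was counted in the B set.

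In the CD3 set, *Trbc2* was detected in all 25 cells and *Trac*, the T cell receptor α constant gene, in 22. *Cd8b1* without *Cd4* was found in 11 cells, *Cd4* without *Cd8b1* in 5, both in 2 and neither in 7. *Il2rb* was also present in 19 cells of this set, 13 of them with at least 2 UMIs. *S1pr1*, the receptor with which lymphocytes leave lymph nodes, was found in 20 cells and the costimulatory receptor *Cd28* in 18.

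The Il2rb set had no UMI of *Cd3d*, *Cd3e* or *Cd3g*, which its definition largely fixes, since a cell with 2 such UMIs would have been in the CD3 set. *Trac* was found in 2 of its cells, but *Trbc2* in 16 and *Trbc1* in 12. The cells of cluster 7 with the most *Cd4* UMIs, 14, 11 and 10, were also in this set. *Ncr1* was found in 13 of 19 cells against 1 of the 25 cells of the CD3 set, *Klrb1c* in 10 against 2, *Xcl1* in 9 against 1 and *Kit*, a growth factor receptor of ILCs and their precursors, in 11 against 1. *Cd7* was found in 18 and *Rora* in 17 of the 19. The set was not uniform. All 203 UMIs of *Gzma* were in 4 of its cells, with 74, 63, 47 and 19 UMIs. *Il22* had 51 UMIs in 1 cell and 17 in another, of 77 in cluster 7. The levels of *Gzma* and *Il22* in cluster 7 thus rested on a few cells each, unlike *Trbc2* or *Il2rb*, of which the 5 leading cells held 34.2% and 30.3% of UMIs.

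Of the 275 *Igkc* UMIs of cluster 7, 264 (96.0%) were in the 5 cells of the B set, with 130, 69, 24, 23 and 18 UMIs. The immunoglobulin µ gene *Ighm* was found in all 5 but also in 16 cells of the CD3 set and 11 of the Il2rb set. In the B set *H2-Ab1*, the β chain of the MHC class II molecule I-A, was at 6019 CPM, against 376 CPM in the CD3 set and 910 CPM in the Il2rb set. The 5 cells held 16, 18, 19, 31 and 264 *H2-Ab1* UMIs, and the last of them, the deepest with 32762 UMIs, was the only one of the 5 with *Fscn1*.

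**Figure D2:**
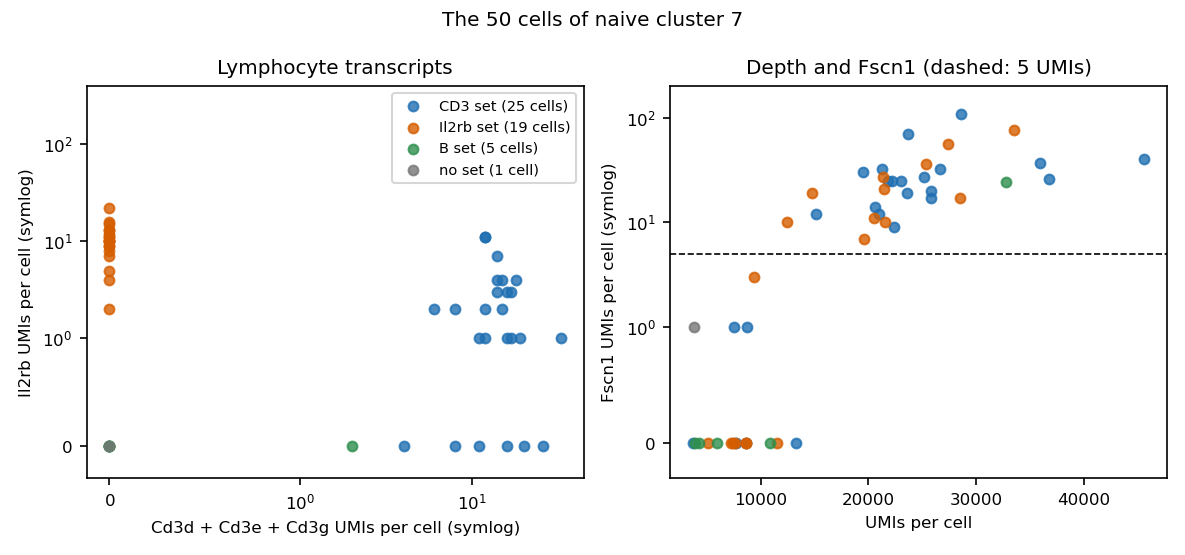
Each point is 1 of the 50 cells of cluster 7, colored by set, with UMIs of the CD3 genes against *Il2rb* on the left (both axes symlog) and total UMIs against *Fscn1* UMIs on the right (y axis symlog). The 19 cells of the Il2rb set stand at 0 on the CD3 axis, and 31 cells lie above the dashed line at 5 *Fscn1* UMIs while 19 lie below it at 0 to 3.

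The cells also parted by the migratory DC gene *Fscn1*, a split again chosen after the values were seen. In 31 cells there were 7 to 108 *Fscn1* UMIs and in 19 cells 0 to 3. Between 4 and 6 lay 0 of the 50 cells and 127 of the other 1974. With so few cells in cluster 7, these counts do not show that the gap is particular to it. The first group held 19 cells of the CD3 set, 11 of the Il2rb set and 1 of the B set. The second held 6, 8 and 4, and the cell in no set. All 19 cells with under 5 *Fscn1* UMIs were in the CD301blo class. The 4 CD301bhi and 12 CD301bint cells were all among the 31, with 15 CD301blo cells.

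Both groups held lymphocyte transcripts, but they differed in depth. The 31 cells had a median of 22993 UMIs (12426 to 45593) and 10421 antibody counts, and the 19 cells a median of 7642 UMIs (3725 to 13296) and 2784 antibody counts. In the other labelled cells with at least 5 *Fscn1* UMIs the median depth was 14080 UMIs with 8055 antibody counts. *Ccr7* was at 3171 CPM in the 31 cells and 547 CPM in the 19. The chemokine *Ccl22* was at 1324 against 41.6 CPM, but 398 of the 1011 UMIs in the 31 cells were in 1 cell, without which the level was 840 CPM. The maturation marker *Cd83* was at 1256 against 326 CPM and *Marcks*, a membrane-bound actin regulator, at 1827 against 90.1 CPM. *Il2rb* went the other way, with 217 CPM in the 31 cells and 658 CPM in the 19. The CD3 set followed the same order, with *Cd3e* at 184 CPM in its 19 cells with *Fscn1* and 443 CPM in its 6 cells with under 5 *Fscn1* UMIs. These levels are relative to total depth, which was lower in cells with under 5 *Fscn1* UMIs, and do not show more transcript per cell. The 3 CD3 genes together had a median of 15 UMIs per cell in those 19 cells and 13 in the 6. Relative to depth, the 31 cells had lower *Fscn1* (1171 against 2083 CPM), *Ccr7* (3171 against 4043 CPM) and *Ccl22* (1324 against 1967 CPM) than the other labelled cells with at least 5 *Fscn1* UMIs. The 31 cells were deeper, and medians per cell were 25 and 25 *Fscn1* UMIs, 77 and 61 *Ccr7* UMIs, and 6 and 9 *Ccl22* UMIs. For *Fscn1* and *Ccr7* the lower CPM thus do not show fewer transcripts per cell. A cell with the transcripts of 2 cell types and a droplet with 2 cells cannot be told apart in these counts, and no doublet caller was run.

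Several groups of dendritic cell and myeloid genes were lower in cluster 7 than in the pool of the other labelled cells, a difference that rested largely on cluster 5, in which many of these genes were highest. Of 10 cDC2 markers above the filter 6 were at least 2-fold lower and 1 was higher, with a median log2 ratio of -1.77, and 4 of the 10 reached the filter only in the other cells. *Mgl2* had 1 UMI in cluster 7, or 1.10 CPM (0.0279 to 6.14), against 46.3 CPM. The lectin genes *Cd209a* and *Clec10a* had 0 UMIs and were at least 12.8-fold and 5.46-fold lower, with 3 counts over the cluster as the limit, but without cluster 5 the other cells were at 0.635 and 0.159 CPM, under the 3.30 CPM that this limit stands for. *Sirpa*, which encodes CD172a, was at 39.7 against 99.0 CPM, and *Itgax*, the gene of CD11c, at 16.5 against 82.3 CPM. *Irf4*, *Zeb2*, *Klf4* and *Itgam* did not pass 2-fold, with log2 ratios from -0.77 to 0.08 (for *Itgam* -0.07 and for *Irf4* -0.56), and *Ms4a4c* was higher by 2.40. Cluster 5 had *Ms4a4c* at 57.7 CPM, near the 57.3 CPM of cluster 7. Against the other cells without cluster 5, a comparison chosen after the values were seen, 1 of 6 cDC2 markers was at least 2-fold lower and 1 higher, with *Mgl2* at 1.10 against 1.71 CPM, *Sirpa* at 39.7 against 74.4 CPM and *Itgax* at 16.5 against 35.1 CPM. Over all 8094 genes of that comparison, 1205 were at least 2-fold higher and 279 lower, which bears on each list count without cluster 5. The summed level of the 11 listed cDC2 markers was 573 CPM in cluster 7, which lay among the other naive clusters, at 463 CPM in cluster 2 to 888 CPM in cluster 6 and 2693 CPM in cluster 5. By this summed level cluster 7 was not set apart from the clusters labelled cDC2 with it. *Klf4* and *Zeb2* made up much of the sum, at 234 and 177 CPM. *Irf4* and *Zeb2*, at 37.5 and 177 CPM, were lowest in cluster 7 of the 7 naive clusters. None of the 11 was highest there. Among cells with under 5 *Fscn1* UMIs, 10 of 11 cDC2 markers were at least 2-fold lower, against 1744 of all 9037 genes. The other cells in that comparison were near cluster 5, with *Lyz2* at 3916 CPM against 3763 CPM in cluster 5. The cells are called by their cluster number here.

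No gene of the 14 migratory DC markers above the filter passed 2-fold in either direction, and their median log2 ratio was -0.61, although 9 of them were at least 2-fold lower when levels were averaged over cells and 2 against the other cells without cluster 5. *Ccr7* was at 2754 against 3689 CPM, *Fscn1* at 991 against 1841 CPM and *Ccl5* at 3944 against 5450 CPM. The 14 genes of MHC class II presentation had a median of -1.06, and 8 of them were at least 2-fold lower, against 1 when cluster 5 was left out of the other cells. *H2-Ab1* was at 918 against 2299 CPM and *Cd74*, the invariant chain, at 4842 against 9177 CPM. Cluster 7 was not the lowest of the naive clusters for *H2-Ab1*, since cluster 4 was at 527 CPM and cluster 3 at 697 CPM, while cluster 5 was at 9317 CPM. When the 6 other clusters were given equal weight, 7 of the 14 genes were at least 2-fold lower, and 1 was when cells with a *Cd3e* or *Trac* UMI were left out of both groups. Among the 31 cells with *Fscn1*, set against other cells with *Fscn1*, 0 of 13 genes of this list were 2-fold lower, against 240 of all 8083 genes. Among the 19 cells with under 5 *Fscn1* UMIs, set against other such cells, 13 of 14 were lower, against 1744 of all 9037 genes. In these 19 cells *Cd74* was at 2384 against 20350 CPM, with medians of 2 and 311 UMIs per cell. The other cells with under 5 *Fscn1* UMIs were near cluster 5, with *H2-Ab1* at 8523 CPM against 9317 CPM in cluster 5. How many of them were in cluster 5 was not counted, so these contrasts are not free of that cluster.

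The genes with the lowest ratios were myeloid, and cluster 5 had the highest level of each. *Retnla*, a secreted protein of alternatively activated macrophages, was at 7.71 against 93.6 CPM, a log2 ratio of -3.44. The chemokines *Ccl6*, *Ccl9* and *Ccl4* had log2 ratios of -3.26, -3.16 and -2.86. The lysozymes *Lyz1* and *Lyz2* had log2 ratios of -2.67 and -2.11, *Plbd1* -2.65, *Wfdc17* -2.38 and *Dnase1l3*, an extracellular nuclease, -2.28. Without cluster 5 in the other cells, 4 of the 10 genes turned to the other side, with log2 ratios of 2.29 for *Lyz2*, 1.41 for *Lyz1*, 0.77 for *Plbd1* and 0.020 for *Ccl4*. *Dnase1l3* was the only one of the 10 that was lowest in cluster 7, and *Lyz2*, at 147 CPM in cluster 7, was second only to cluster 5 with 3763 CPM. The *Lyz2* level rested on few cells, since 84 of its 133 UMIs (63.2%) in cluster 7 were in 2 cells. Of 11 monocyte and macrophage markers 7 were at least 2-fold lower, with a median of -1.69, but 0 of 5 were without cluster 5. The summed level of the list was 456 CPM in cluster 7, second to 4876 CPM in cluster 5 and above the 138 to 230 CPM of clusters 1 to 4 and 6. *Apoe* and *Lyz2* made up much of this sum, at 164 and 147 CPM. *Apoe*, a lipid carrier, was higher by a log2 ratio of 2.41, and 104 of its 149 UMIs were in 1 cell of the B set.

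Other lists moved less evenly. Of 18 chemokine and chemokine receptor genes 6 were at least 2-fold higher and 4 lower, with a median log2 ratio of 0.07. The higher ones were mostly receptors of lymphocytes, such as *S1pr1* (141 against 4.16 CPM), *Ccr6* (57.3 against 7.55 CPM) and *Cxcr3* (13.2 against 0.0665 CPM). Of 18 cytokine and cytokine receptor genes 3 were higher and 5 lower, and without cluster 5 in the other cells 5 of 17 were higher and 3 lower. Over all 8094 genes without cluster 5, 1205 were higher and 279 lower. The inflammatory cytokine *Il1b* was at 225 against 684 CPM, the GM-CSF receptor *Csf2ra* at 39.7 against 123 CPM, and *Il6* had 0 UMIs against 19.3 CPM, at least 5.85-fold lower. *Ltb*, lymphotoxin β, was at 256 against 17.0 CPM.

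Of 11 costimulatory genes 1 was higher, *Pdcd1lg2* (PD-L2, 28.6 against 10.4 CPM), and 1 lower, *Tnfsf9* (4-1BB ligand, 50.7 against 163 CPM). Cluster 6 had more *Pdcd1lg2*, at 33.3 CPM. Of 6 pattern recognition receptors 4 were lower, or 1 of 4 without cluster 5, and of 18 DC transcription factors 3 were higher (*Ikzf1*, *Ikzf3* and *Cebpb*). The lists of cell cycle, interferon-stimulated, B cell receptor signalling, and immediate early and heat shock genes had at most 2 genes at least 2-fold higher and at most 1 lower, of 10, 8, 12 and 12. The markers of cDC1s had 2 of 4 lower, those of Langerhans cells 1 higher and 1 lower of 4, and those of lymph node-resident DCs 3 of 9 higher (*Dtx1*, *Cd7* and *Ltb*, which lymphocytes also express). The plasma cell, keratinocyte, stromal and mast cell lists had 2, 1, 1 and 1 genes above the filter, of which *Sdc1*, *Sfn*, *Pecam1* and *Hdc* passed it only through cluster 7. Of the 15 *Hdc* UMIs, 14 were in 1 cell. No neutrophil or erythroid gene passed it.

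Of the CD40 and IL-2 axis, which the study followed in CD301b+ DCs, *Il2*, *Cd40* and *Il2ra* did not pass 2-fold. *Il2* had 4 UMIs in 4 cells, 4.41 CPM (1.20 to 11.3), against 3.82 CPM (3.16 to 4.59), a difference not detectable at this depth. *Cd40* was at 206 CPM (178 to 238) against 382 CPM (375 to 389). *Il2ra*, which encodes CD25, was at 96.9 CPM (77.8 to 119.4) against 57.6 CPM (54.9 to 60.4), and naive cluster 2 was near, at 88.2 CPM. In cluster 7 *Il2ra* was found in 12 cells of the CD3 set, 11 of the Il2rb set and 1 of the B set. Since T cells also express *Il2ra*, its source within such cells was not tested.

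The antibody values were not used for the mRNA clusters, although they had decided which cells were cDC2s. They are on a natural logarithm scale and relative to the geometric mean of the 12 antibodies of the cell. CD301b had a median of 0.287 (0.0280 to 2.72) in cluster 7 against 1.24 in the other labelled cells, and 42 of the 50 cells were below the median of the others. CD11c had a median of 1.45 against 2.19, with 40 cells below, but clusters 2 and 3 were lower still, with medians of 1.36 and 1.43. MHC class II had a median of 4.76 against 5.48, with 41 cells below. CD172a had a median of 1.33 against 1.68, with 42 cells below. As a share of all antibody counts, however, CD172a was higher in cluster 7, at 1.86% against 1.59%. CD103, an integrin of cDC1s and of many lymphocytes in tissues, had a median of 0.438 against 0.163, and only 2 cells lay below the median of the others. The rise was not particular to CD103. XCR1 had a median of 0.244 against 0.123, with 9 cells below, and CD326 of 0.583 against 0.441, with 13 below. For CD326 cluster 5 was higher, with 0.640. CD64 and Ly-6C differed little, at 0.0426 against 0.0458 and 0.184 against 0.194. MHC class II made up 85.5% of antibody counts in cluster 7 against 91.0%. CD8a had a median of 0.822 against 0.503, and cluster 2 was higher, with 0.979. For CD301b, CD172a and MHC class II the median of cluster 7 was below those of all 6 other clusters, the nearest of which were 0.425, 1.60 and 5.02. For CD103 and XCR1 it was above all 6, of which the highest were 0.190 and 0.150.

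The sets defined by mRNA differed in their antibody values too. CD8a had a median of 2.51 (0.249 to 3.34) in the 13 cells of the CD3 set with a *Cd8b1* UMI and of 0.614 (0.151 to 2.02) in the 12 without. The ranges overlapped. CD103 had a median of 0.641 in the CD3 set, 0.456 in the Il2rb set and 0.199 in the B set. MHC class II was highest in the B set, with a median of 6.68 (5.47 to 7.64), against 4.99 in the CD3 set and 4.54 (3.90 to 5.20) in the Il2rb set, so that no cell of the Il2rb set reached the lowest cell of the B set. CD172a had a median of 0.467 in the B set, where 1 cell reached 1.88, and of 1.22 and 1.40 in the CD3 and Il2rb sets. CD301b was lowest in the Il2rb set, with a median of 0.125, although the highest cell of cluster 7, at 2.72, was also in this set. In the 8 cells of the Il2rb set with under 5 *Fscn1* UMIs, CD301b ranged from 0.0280 to 0.125.

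**Figure D3:**
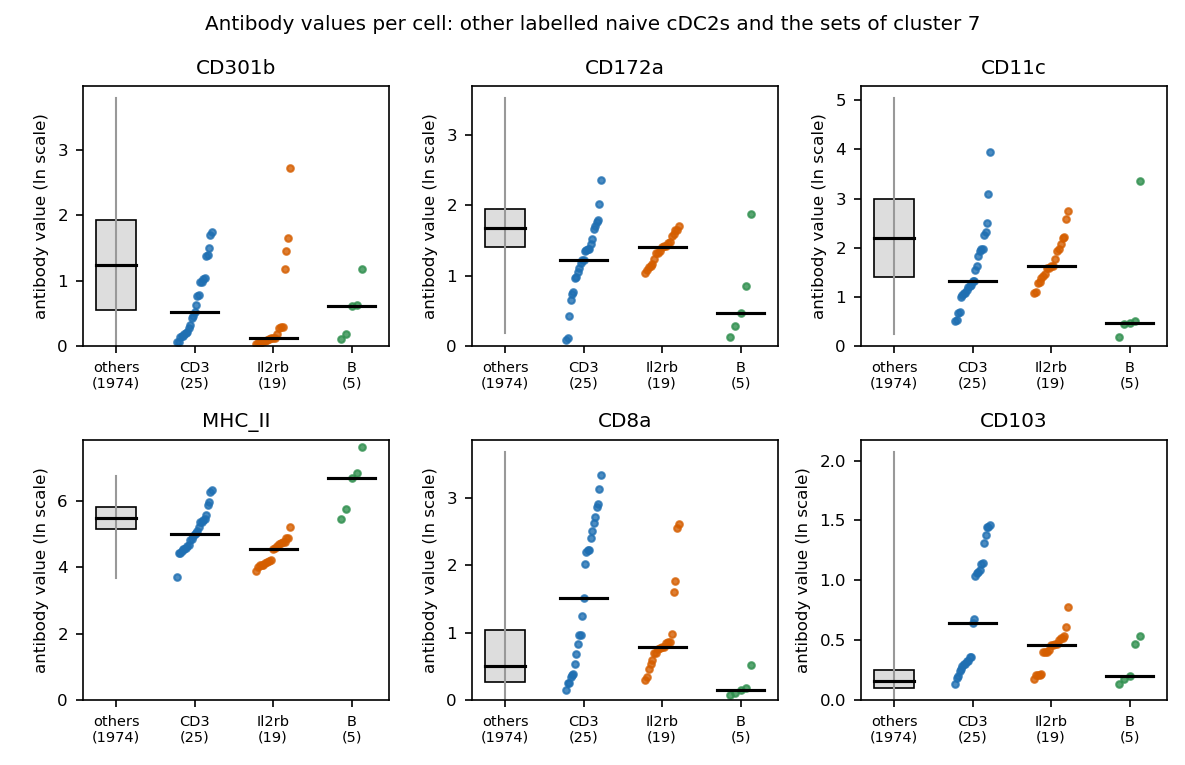
Antibody values on the deposited natural logarithm scale for 6 antibodies, with the other labelled naive cDC2s as a box (quartiles, median line, whisker from lowest to highest cell) and each cell of the CD3, Il2rb and B sets as a point with the median as a line. Most points lie below the box for CD301b, above it for CD103, and for MHC class II (MHC_II) the B set lies highest.

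Among the naive clusters cluster 7 was most like cluster 4, with a Pearson correlation of 0.814 between log2 profiles across 8153 genes, and least like cluster 6 with 0.719. Clusters 1 to 5 spanned only 0.796 to 0.814. Cluster 6 had the fewest pooled UMIs of the naive clusters, 330075, and the effect of this on its correlation was not tested. Outside the cDC2s it was nearer to the cDC1s of the same library (0.850), and nearest to the 429 naive cells without antibody data (0.922). Those cells had *Trbc2* at 281 CPM and *Cd3g* at 163.5 CPM, but *Il2rb* at 27.7 CPM and *Gzma* at 0.685 CPM. Genes are not independent, and these cells share a library, so the correlations are descriptions.

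Cells of the same sets were rare among the other labelled cDC2s, the only other cells to which the criteria were applied. Outside them, 9.86% of the naive cDC1s had at least 2 *Cd3d* UMIs and 7.09% at least 2 *Il2rb* UMIs. The naive cells without antibody data had the T cell list at a summed 1660 CPM, against 1839 CPM in cluster 7. Of the other labelled naive cells 8 (0.405%) met the CD3 criterion, 2 the *Il2rb* criterion and 36 (1.82%) the B criterion. Of those 36, 20 were in cluster 5, 8.13% of its 246 cells. In cluster 7 the CD3 set was 50% (35.5 to 64.5%), the Il2rb set 38.0% (24.7 to 52.8%) and the B set 10.0% (3.33 to 21.8%) of the cells.

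The deposited cluster numbers form a separate series in each library, so a papain cluster is not matched to the naive cluster of the same number here. No papain cluster had *Il2rb* above 3.33 CPM (cluster 9), and across 6190 labelled papain cells it was at 0.561 CPM. Papain cluster 9, with 216 cells, was the most like naive cluster 7, with a correlation of 0.850, and had *Trbc2* at 27.8 CPM and *Ms4a4b* at 30.7 CPM. The CD3 criterion was met by 49 papain cells (0.792%), of which 20 were in cluster 5 (3.57% of 560) and 11 in cluster 9 (5.09%). Papain cluster 5 was the deepest, with a median of 30020.5 UMIs. The *Il2rb* criterion was met by 1 papain cell and the B criterion by 51, of which 26 were in cluster 4. Condition, lymph node site and library cannot be told apart in this comparison.

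**Figure D4:**
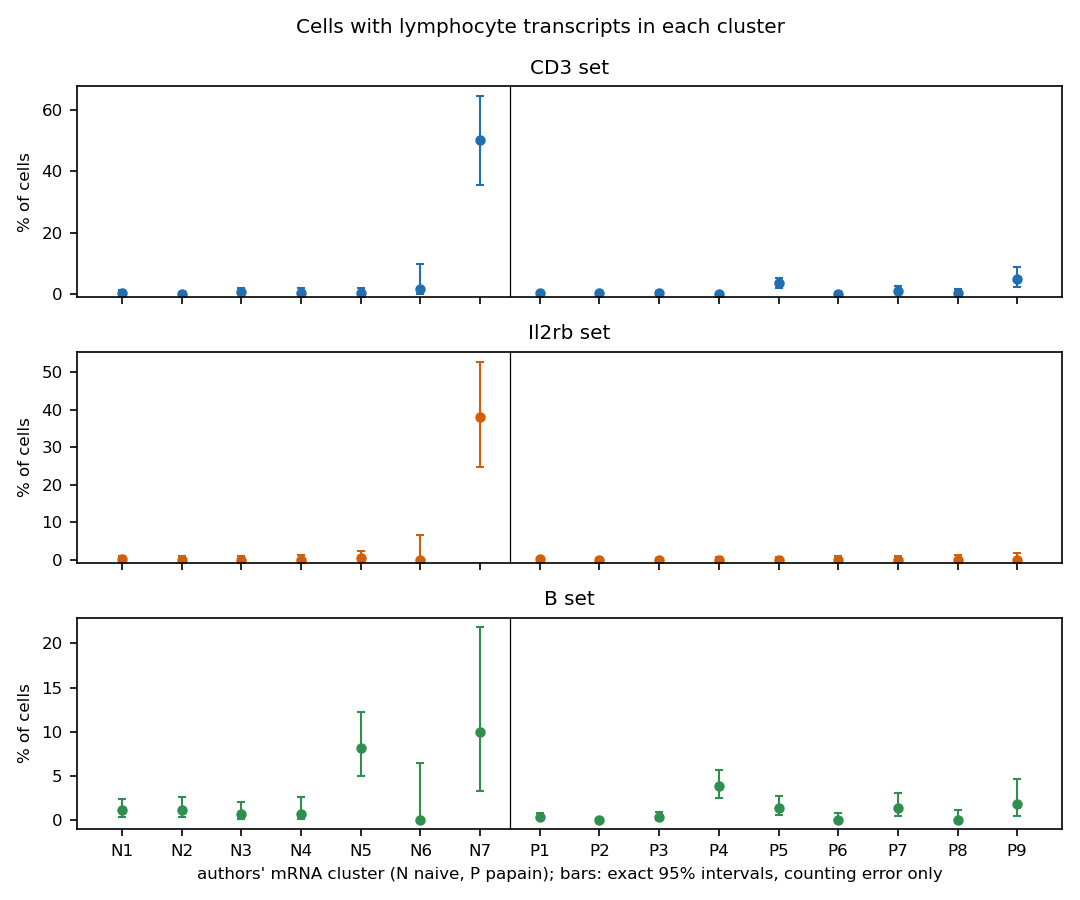
Share of cells in percent (y axis) that met the CD3, *Il2rb* or B criterion in each of the 7 naive (N) and 9 papain (P) mRNA clusters, with exact 95% intervals for counting error. Cluster N7 is at 50%, 38.0% and 10.0%, and the next highest shares are 5.09% (P9), 0.407% (N5) and 8.13% (N5).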

How the data were processed

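One CITEseq library of naive B6 mice and 1 of B6 mice given OVA plus papain 1 day earlier were analysed (10x 3′ v3). Per the labels, the authors used Cell Ranger 3.0.1, genome build mm10 and Partek. Expression values were deposited by the authors as log2 of CPM plus 1, and within each cell they were whole multiples of 1 UMI (100% of values up to 50 UMIs, within 0.02), from which UMIs were recovered. Antibody values the authors deposited are on a natural log (ln) scale, and their totals and the numbers of expressed genes are deposited as counts. The total per cell deposited with the transcripts is a score that adds up log2 values, and the deposited mitochondrial percent is a share of that sum, so it was recomputed from UMIs. Tags come from the deposited list of antibodies.

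CPM were summed over cells, and a gene was past the fold at a log2 ratio of 1 or -1 after adding 1 CPM to both groups, where either group reached 10 CPM. The rule for named genes took the 15 highest and 10 lowest log2 ratios among genes with at least 50 CPM, up to 4 members of each list past 2-fold, and *Il2*, *Mgl2*, *Cd40* and *Il2ra*. Further members of the lists were named after their values were seen. A few genes that the rule named are not reported here. Cluster 7 and the lists were chosen with earlier results of these data known. Cell types come from the authors' labels, no cell was filtered out, and doublets were not called. Code was tested on simulated data. Depth per naive labelled cell was 3637 to 50632 UMIs, so single UMIs decide whether a low gene is detected. Python 3.11.15, numpy 2.4.6 and scipy 1.17.1 were used. Alternatives for the pseudocount, filter, scaling, comparison group and cells are given in the closing section.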

Additional observations from a re-analysis of the deposited data

How the results depend on the processing

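No paired analysis was possible because each condition has 1 library, without a replicate number, so none could be left out. The 15 highest and 10 lowest genes kept their direction in 293 of 300 alternative values. The exceptions were *Cd3g* (-0.35) and *Cd3d* (-0.92) without cells holding a *Cd3e* or *Trac* UMI, which removes these genes by construction, and *Gzma* (-0.35) among cells with under 5 *Fscn1* UMIs. Against the other cells without cluster 5, *Lyz2* (2.29), *Lyz1* (1.41), *Plbd1* (0.77) and *Ccl4* (0.020) turned as well. This alternative and both *Fscn1* ones were chosen after seeing the data.

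The counts depended on the settings. Against 1055 genes higher and 323 lower, there were 580 and 119 with a pseudocount of 10 CPM, 1601 and 618 with the mean over cells, 2124 and 1306 without a minimum, and 273 and 75 with a minimum of 50 CPM. Without cells holding a *Cd3e* or *Trac* UMI 690 genes were lower, and among cells with under 5 *Fscn1* UMIs 2457 were higher and 1744 lower. Among cells with at least 5 *Fscn1* UMIs 975 were higher and 240 lower. Without cluster 5 in the other cells, 1205 were higher and 279 lower. The share of higher genes among those past 2-fold was 76.6%, and it was 61.9% without a minimum and 58.5% among cells with under 5 *Fscn1* UMIs. Median-ratio scaling shifted all log2 ratios by 0.08.

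Monocyte and macrophage genes lower numbered 4 with a pseudocount of 10 CPM or the mean over cells, 1 with a minimum of 50 CPM, and 3 and 12 among cells with at least and under 5 *Fscn1* UMIs. With a minimum of 50 CPM, 4 NK cell, 4 ILC and 3 B cell genes were higher and 2 cDC2 genes lower, and without a minimum 20 B cell genes were higher. Of the migratory DC genes 9 were lower with the mean over cells, 1 without the deepest 10% of cluster 7, 1 without cells holding a *Cd3e* or *Trac* UMI and 12 among cells with under 5 *Fscn1* UMIs. Without cells holding a *Cd3e* or *Trac* UMI 7 T cell genes were higher and 1 MHC class II gene lower, and cluster 7 was 1.14% of the cells. Among cells with at least 5 *Fscn1* UMIs, 4 B cell genes were higher, 3 cDC2 genes lower and 0 MHC class II genes lower, and among those with under 5, 10 cDC2 and 13 MHC class II genes were lower. Without cluster 5 in the other cells, 1 cDC2, 0 monocyte and macrophage, 1 MHC class II and 2 migratory DC genes were lower. *Nkg7* was found in 28.0% of cells with at least 2 UMIs. As a share of antibody counts, the difference of medians (cluster 7 minus others, in percentage points) was 0.272 for CD172a and 0.0566 for Ly-6C, both the reverse of the log values, and 0 for CD64. The cause of these shifts was not tested. With 50 cells in 1 library, genes of a few UMIs and the sets of 5 and 19 cells are the least certain values.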
